A study of Mus musculus with 10 samples.

Results

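A list of 53 genes of ribosome biogenesis and the nucleolus was examined in whole adrenal glands of Crem knock-out (KO) and wild-type (WT) mice, and 52 of them were measured out of 19661 genes with a probe of their own. The members were chosen by name as factors of ribosome production, and each was read from its probe with the highest mean. Noc2l had no probe in the annotation used here. The group was picked from the KO to WT difference on these same arrays, so the counts and differences between genotypes below are a description and carry no test of the group. The arrays were Affymetrix whole-transcript arrays hybridized with total RNA of 5 mice labelled Crem-/- and 5 labelled WT, all of the mixed 129Pas x C57Bl/J strain. Mice of both genotypes were 8 weeks old, untreated, and were killed at 0 h circadian time. The knock-out is present in every cell of the animal, and the sex of the mice is not among the labels used here. The labels give 4 batches, without saying what a batch is. Batch 1 held KO 1, KO 2 and WT 1, batch 2 held KO 3 and KO 4, batch 3 held KO 5, WT 2, WT 3 and WT 4, and batch 4 held WT 5.

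Ribosomes are built in the nucleolus. RNA polymerase I transcribes the long ribosomal RNA precursor, the small subunit processome folds and cleaves it, small nucleolar ribonucleoproteins (snoRNPs) modify its bases and sugars, and a separate set of factors assembles the large subunit. The demand for ribosomes follows cell growth, and transcription factors of the Myc family are well known activators of these genes. The adrenal cortex makes steroid hormones under cAMP signalling, and CREM is a transcription factor that binds cAMP response elements.

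Some arrays stood apart before any gene was considered. The first principal component held 53.8% of the variance over all probes, with scores of 0.433 for KO 2, 0.381 for KO 5 and 0.379 for WT 3 against 0.109 for WT 4 and -0.337 to -0.148 for the other 6 arrays. A further pair of KO arrays carried the highest levels of transcripts of other tissues, though not the only ones. The adipocyte list below was next highest on WT 1 (10.68) and WT 3 (10.41). The mean log2 level of 9 adipocyte markers was 12.51 on KO 1 and 12.34 on KO 3 and 8.20 to 10.68 on the other arrays, and that of 9 liver and pancreas markers was 11.00 on KO 1, 8.33 on KO 3 and 6.52 to 7.71 elsewhere. The 10 adrenal cortex markers measured, among them Star and Cyp11b1 of steroid synthesis, averaged 12.42 on KO 1 and 12.33 on KO 3 and 12.80 to 13.00 on the other arrays, so the labelled tissue was present on every array. Chromaffin markers (9 measured) averaged 8.18 on KO 1 and 11.22 to 12.12 elsewhere. The probe of Crem itself read 7.38, 7.97, 6.86, 6.84 and 7.77 on KO 1 to KO 5 and 7.45, 7.23, 8.14, 7.62 and 7.27 on WT 1 to WT 5. These groups overlapped (difference -0.18, SE 0.26), and because the sources used here do not say which part of the gene was deleted, this level does not check the labels. Genotypes are therefore used as labelled.

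The promoters are shown because they are a property of these genes that the choice of members did not use. RefSeq windows of 300 bases (250 before and 50 after a gene's start, build GRCm38.p6) were at hand for 44 of the 53 genes, in 54 windows. The stretches below are the 100 bases just before the start, 5′ to 3′ on the gene's own strand, for the 3 members whose genotypes did not overlap (Urb2, Heatr1 and Nol9), for the member with a complete cAMP response element (Noc4l) and for a pair of the members that varied most between arrays (Nop58 and Ncl). Capitals mark the complete element TGACGTCA, its half-site TGACG or CGTCA (the reverse complement), and the ETS core CCGGAAG.
Urb2, chr8:124021397-124021496, plus strand: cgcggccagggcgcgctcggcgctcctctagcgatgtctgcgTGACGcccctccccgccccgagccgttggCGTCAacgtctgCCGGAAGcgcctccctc
Heatr1, chr13:12395275-12395374, plus strand: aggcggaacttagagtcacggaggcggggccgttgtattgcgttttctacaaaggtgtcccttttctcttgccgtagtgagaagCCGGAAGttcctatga
Nol9, chr4:152039221-152039320, plus strand: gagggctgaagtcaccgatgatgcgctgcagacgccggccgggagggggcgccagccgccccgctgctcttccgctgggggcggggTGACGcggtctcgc
Noc4l, chr5:110653383-110653482, minus strand: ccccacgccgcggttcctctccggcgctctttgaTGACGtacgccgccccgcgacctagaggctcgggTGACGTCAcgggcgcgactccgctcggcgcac
Nop58, chr1:59684906-59685005, plus strand: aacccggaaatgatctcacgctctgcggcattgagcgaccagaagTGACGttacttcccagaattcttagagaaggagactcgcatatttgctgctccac
Ncl, chr1:86359456-86359555, minus strand: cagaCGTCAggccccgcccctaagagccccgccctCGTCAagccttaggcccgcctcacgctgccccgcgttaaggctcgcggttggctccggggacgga

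Both strands of the whole windows were searched. The half-site TGACG was found in 26 of the 54 windows (48.1%, 25 genes) and in 23.6% of 21262 windows of all protein-coding genes, and the ETS core CCGGAAG in 31.5% of the windows (16 genes) and 11.6% of all. The complete element TGACGTCA, which contains the half-site on both strands, was found in Noc4l alone, 1.85% of the windows against 2.23% of all. The E-box CACGTG, a letter string that Myc family proteins bind, was found in 13.0% of the windows (Mybbp1a, Nol11, Nop2, Pes1, Utp18, Utp20 and Wdr43) and in 7.84% of all. The string TCTCGCGA was found in 4 windows of 3 genes (Nol9, Nop14 and Nop58), 7.41% of the windows against 1.41% of all. Nol9 has 2 windows with different starts, and both hold the string. In the Nol9 window shown it runs past the start and in Nop58 it lies farther upstream, so it is not marked above. The string AAGATGGC, a YY1 core, was found in 0 of the 54 windows and in 3.05% of all. Median GC content was 59.7% in the members' windows and 56.3% in all windows, and a match to such short strings moves with GC content. These are letter matches and no binding was measured.

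**Figure D1:**
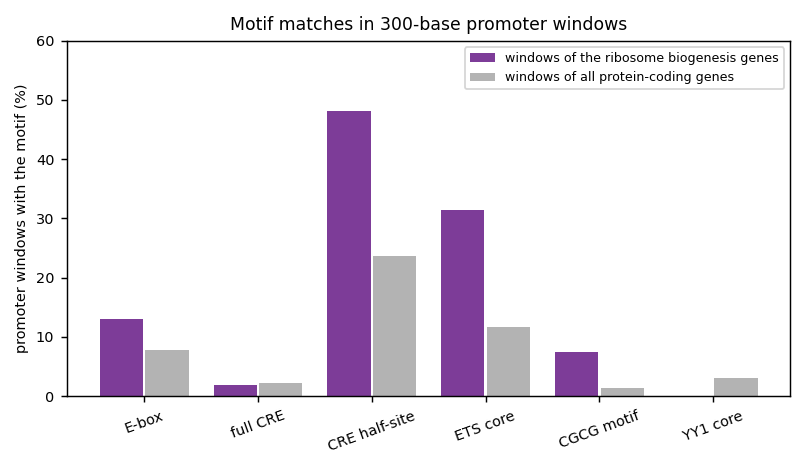
Bars give the percent of 300-base promoter windows that hold each motif on either strand, for 54 windows of the ribosome biogenesis genes (purple) and 21262 windows of all protein-coding genes (grey). The CRE half-site (48.1% against 23.6%) and the ETS core (31.5% against 11.6%) are the motifs with the widest gap between the bars, and the YY1 core has no match in the members.

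Most of the genes were a little lower in KO adrenals, and none passed the threshold. The KO mean was below the WT mean for 45 of 52 members (86.5%), a direction held by 53.2% of all genes, and the median difference was -0.23 on the log2 scale (all genes -0.01). With limma and an adjusted p under 0.05 as the threshold, 0 of 52 members and 0 of 25664 probes were called (0%), with 0.9995 as the smallest adjusted p. At an unadjusted p under 0.05, 9 members (17.3%) were lower in KO, where 2.50% of all probes and 2.88% of all genes were. In the other direction 0 members were counted, where 0.923% of all probes were. The 9 were Ubtf, Polr1a, Heatr1, Utp20, Utp15, Fbl, Nolc1, Urb2 and Nol9. Single arrays moved this count, to 4 without WT 5 (1.36% of probes), to 5 without KO 1 (1.73%) and to 5 without KO 3 (1.68%). The KO and WT values did not overlap for 3 members (5.77%), all lower in KO, where the same held for 0.498% of all genes. On 9 arrays the count was 5 without KO 2 (all genes 1.06%) and 7 without KO 4 (1.58%). In the opposite direction 0 members were free of overlap, where 0.219% of genes were. The mean over all members was 8.85 ± 0.22 (SD, n = 5; range 8.61 to 9.09) in KO and 9.02 ± 0.13 (n = 5; 8.85 to 9.16) in WT, and these ranges overlapped. In RNA of a whole gland, fewer cells of a type and less RNA per cell cannot be told apart.

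Markers of cell types differed between the genotypes along with these genes, though none of them passed the adjusted threshold. The KO mean was lower for 10 of 10 adrenal cortex markers (median difference -0.14), 9 of 9 chromaffin markers (-0.82), 8 of 8 endothelial markers (-0.35), 8 of 8 macrophage markers (-0.19) and 7 of 8 markers of capsule and stroma (-0.21). It was higher for 9 of 9 adipocyte markers (0.43), 9 of 9 liver and pancreas markers (1.29), 6 of 6 lymphocyte markers (0.20) and 2 of 2 erythroid markers (0.35). With batch as a block, 4 adipocyte (median 0.15), 3 liver and pancreas (0.79), 4 lymphocyte (-0.05) and 1 erythroid marker (-0.11) were lower in KO. In that fit 8 cortex, 9 chromaffin, 7 endothelial, 6 macrophage and 6 capsule and stroma markers were lower. Within batch 3, which has 1 KO array, 9 of 9 liver and pancreas markers were lower (-0.46). The mean level of each list overlapped between genotypes, for example 10.10 to 10.53 in KO and 10.38 to 10.87 in WT for the endothelial list and 9.06 to 10.11 against 9.49 to 10.22 for the macrophage list. The chromaffin list averaged 8.18 on KO 1 and 11.22 to 12.12 on the other arrays. Without KO 1 the difference of the chromaffin marker Th went from -0.85 to -0.10 and that of Pnmt from -0.91 to -0.03. Within batch 3, which lacks KO 1 and has 1 KO array, 9 of 9 chromaffin markers were lower in KO (median -0.64). The part of these cell types in the differences of the ribosome biogenesis genes was not tested.

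**Figure D2:**
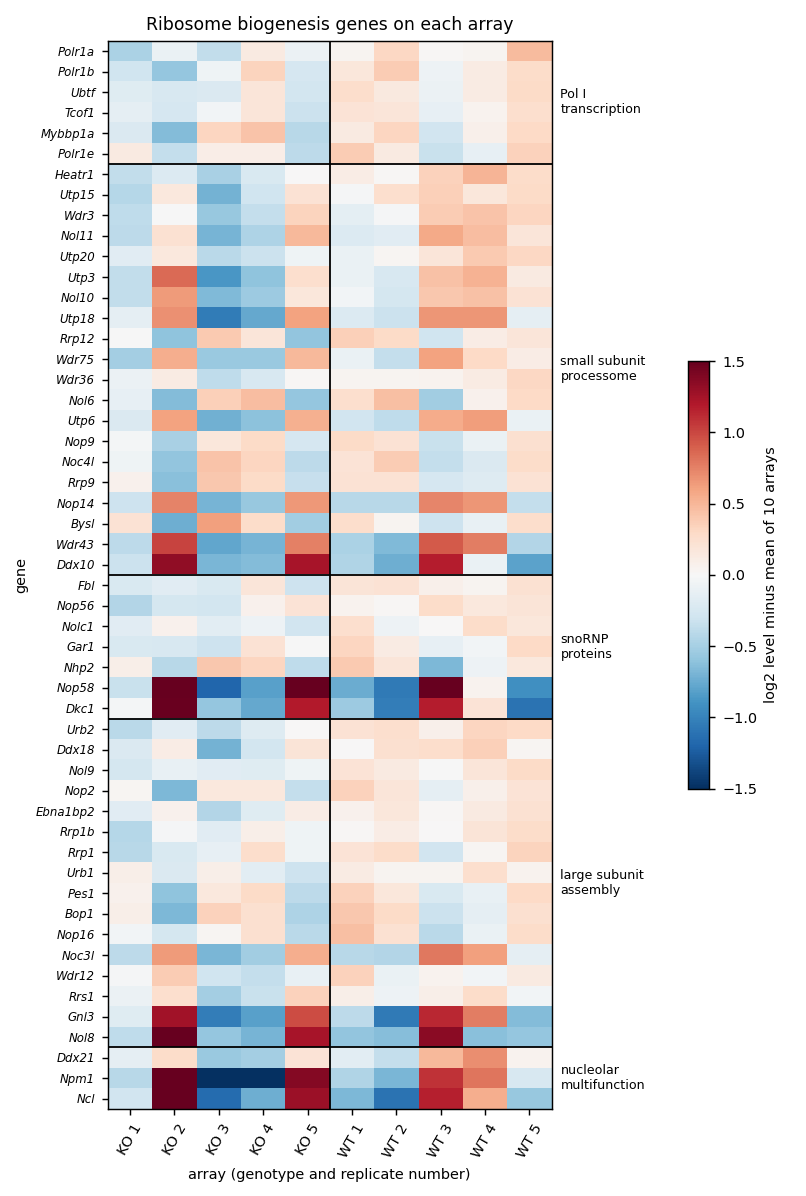
Rows are the 52 genes, ordered within their role by the KO minus WT difference, and columns are the 10 arrays. Colour is the log2 level minus the gene's own mean over the arrays, capped at 1.5 either way. Blue is frequent on KO 1, KO 3 and KO 4, while Npm1, Ncl, Nop58, Dkc1, Nol8, Ddx10 and Gnl3 are dark red on KO 2, KO 5 and WT 3.

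Fitting batch as a fixed block changed the picture for part of the group. With batch as a fixed block in limma, 33 of 52 members (63.5%) had a lower KO estimate, close to the 59.9% of all genes, and the median member estimate was -0.18 (all genes -0.06). With that block 0 members and 0% of all probes passed the adjusted threshold, where the smallest adjusted p over all probes was 0.5825. At an unadjusted p under 0.05, 11 members (21.2%) were lower in this fit against 5.38% of probes and 5.99% of genes. In the other direction 0 were counted, against 1.80% and 1.51%. With batch as a random block in limma 43 of 52 members were lower, with a median of -0.23. The share of all genes was not counted for that fit. There 9 members were lower at an unadjusted p under 0.05, against 2.53% of probes. Batches 1 and 3 are the ones that hold both genotypes, with 1 WT array in batch 1 and 1 KO array in batch 3. Within batch 1 KO was lower for 34 members (65.4%, all genes 57.3%), with a median difference of -0.22 (all genes -0.06). Within batch 3 it was lower for 32 members (61.5%), close to the share among all genes (61.0%), with a median of -0.08 (all genes -0.07). Both batches gave the lower value in KO for 29 members (55.8%), against 45.6% of all genes.

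The arrays that stood apart also moved the counts. Without KO 2, KO 5 and WT 3, 45 members were lower in KO (86.5%, all genes 47.7%) and the median difference was -0.31. There 18 members (34.6%) had an unadjusted p under 0.05 in that direction, where 7.29% of probes and 8.41% of genes did. In that set of 7 arrays 15 members (28.8%) did not overlap, where 6.80% of genes did not, and 0 members were called after adjustment. KO 1 and KO 3 were the arrays highest in adipocyte, liver and pancreas transcripts. Without them 37 members were lower in KO (71.2%, all genes 58.6%) and the median was -0.16. In that limma fit 4 members (7.69%) were lower at an unadjusted p under 0.05, where 1.89% of probes were. The part of the other tissues' RNA in these differences was not tested. The number of members above their own median over the 10 arrays was 13, 24, 14, 22 and 24 on KO 1 to KO 5, against 30, 27, 30, 35 and 41 on WT 1 to WT 5. KO 1 and KO 3 were the low end of this count and WT 5 the high end (78.8% of members, 58.1% of all genes). On KO 3 only 26.9% of members were above their median, while 57.9% of all genes were. KO 3 was the lowest array for 22 of 52 members, beside 13.4% of all genes. It was the highest for 5 members, beside 17.3% of all genes.

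Genes of RNA polymerase I transcription were lower in KO for 6 of 6 members, with a median difference of -0.26. All 6 were also lower when batch was a block (median -0.39), inside batch 1 alone (median -0.49) and inside batch 3 alone (median -0.35). Batch 1 held 1 WT array and batch 3 held 1 KO array, KO 5. Without KO 2, KO 5 and WT 3 all 6 stayed lower, but the median was -0.21. Values there ran from -0.45 for Polr1a to -0.04 for Mybbp1a, with Polr1e at -0.07. In that limma fit 1 of 6 (16.7%) had an unadjusted p under 0.05, beside 8.41% of all genes. Ubtf, the factor that binds ribosomal DNA and opens it for RNA polymerase I, read 10.10, 10.04, 10.07, 10.47 and 10.01 on KO 1 to KO 5 and 10.55, 10.43, 10.20, 10.40 and 10.58 on WT 1 to WT 5. KO 4 lay among the WT values while the other 4 KO arrays were below every WT array. The difference was -0.29 (SE 0.12, limma adjusted p = 0.9995), which puts the KO mean at 81.6% of WT. Polr1a, the largest subunit of the polymerase, read 9.43, 9.81, 9.54, 10.05 and 9.82 in KO and 9.95, 10.22, 9.93, 9.95 and 10.38 in WT. Again only KO 4 reached the WT range, and the difference was -0.35 (SE 0.14). Polr1b, the subunit that forms the active site with Polr1a, read 8.56, 8.28, 8.80, 9.19 and 8.61 in KO and 9.03, 9.24, 8.78, 8.98 and 9.13 in WT. The groups overlapped through KO 3 and KO 4, and the difference of -0.34 (SE 0.16) was -0.49 with batch as a block. Tcof1, the gene of treacle, which recruits the polymerase to ribosomal DNA, differed by -0.23, the polymerase subunit Polr1e by -0.16 and Mybbp1a, a nucleolar Myb-binding protein, by -0.22. With the block these were -0.38, -0.38 and -0.51.

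The small subunit processome held 20 members, of which 19 had a lower KO mean (median difference -0.23). Heatr1, a scaffold of the subcomplex that joins transcription to early processing, read 8.65, 8.81, 8.53, 8.79 and 9.02 in KO and 9.13, 9.04, 9.37, 9.53 and 9.30 in WT. The highest KO array, KO 5, was still below the lowest WT array, WT 2, so the groups did not overlap. The difference was -0.51 (SE 0.13, 95% interval -0.79 to -0.23, limma adjusted p = 0.9995), and the KO mean was 70.2% of WT. Blocking on batch gave -0.34, and the arrays of batch 1 and of batch 3 taken alone gave -0.40 and -0.29.

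Other processome members were low on 3 KO arrays and not on the rest. Utp15, of the same subcomplex as Heatr1, read 8.13, 8.72, 7.85, 8.26 and 8.77 in KO and 8.54, 8.81, 8.91, 8.73 and 8.85 in WT. KO 1, KO 3 and KO 4 were its 3 lowest arrays, while KO 2 and KO 5 lay within the WT range. Its difference of -0.42 (SE 0.18) was -0.08 with batch as a block. Utp20, a very large scaffold protein, read 8.44, 8.77, 8.20, 8.29 and 8.55 in KO and 8.51, 8.64, 8.79, 9.00 and 8.92 in WT. Here too KO 1, KO 3 and KO 4 were lowest and the groups overlapped. Its difference was -0.32 (SE 0.14), but -0.09 with batch as a block and 0.09 within batch 1. Wdr3, a WD-repeat protein of the subcomplex that follows, read 8.33, 8.71, 8.14, 8.35 and 9.05 in KO and 8.57, 8.69, 9.09, 9.14 and 9.03 in WT. KO 5 was among its highest arrays, and the difference of -0.39 (SE 0.19) was 0.02 with batch as a block. Its partner Wdr36 read 9.50, 9.72, 9.21, 9.35 and 9.60 in KO and 9.63, 9.62, 9.64, 9.71 and 9.89 in WT. The groups overlapped, with a difference of -0.22 (SE 0.11) and -0.04 with batch as a block. Nol11, another member of the early subcomplex, read 8.23, 8.85, 7.92, 8.15 and 9.11 in KO and 8.42, 8.44, 9.19, 9.08 and 8.81 in WT. Low and high arrays were found in both genotypes, and the difference of -0.34 (SE 0.25) was 0.16 with batch as a block.

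Over the whole processome the direction depended on the fit and on the arrays used. With batch as a block 10 of 20 members were lower in KO and the median was -0.01. KO 2, KO 5 and WT 3 all belong to batches 1 and 3, which hold both genotypes, so the block estimates rest in part on these arrays. Without them 17 of 20 members were lower, with a median of -0.44. In that limma fit 9 (45.0%) had an unadjusted p under 0.05 in that direction, beside 8.41% of all genes. For the 6 members lowest on KO 2, KO 5 and WT 3 (Nop9, Nol6, Noc4l, Rrp9, Rrp12 and Bysl) the estimates with the block ran from -0.64 for Rrp12, a nuclear export factor, to -0.35 for Nop9. Members highest on KO 2 and WT 3 had estimates of up to 0.59 for Wdr43 and 1.04 for the helicase Ddx10. Noc4l, the partner of Nop14 and the one member with a complete cAMP response element in its window, read 8.68, 8.14, 9.17, 9.07 and 8.35 in KO and 8.95, 9.12, 8.39, 8.52 and 9.02 in WT. Its groups overlapped widely (difference -0.12, SE 0.23, and -0.42 with the block).

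Proteins of the snoRNPs gave 4 of 7 members lower in KO, with a median difference of -0.23. Fbl (fibrillarin), the methyltransferase of the C/D box particles, read 8.31, 8.37, 8.31, 8.72 and 8.23 in KO and 8.73, 8.75, 8.62, 8.58 and 8.77 in WT. KO 4 lay inside the WT range and the other 4 KO arrays below it. The difference was -0.30 (SE 0.11), with values of -0.39 within batch 1 and -0.42 within batch 3. Nolc1, a chaperone of snoRNPs, read 9.06, 9.30, 9.08, 9.16 and 8.95 in KO and 9.49, 9.17, 9.24, 9.52 and 9.41 in WT. The groups overlapped through KO 2, and the difference of -0.25 (SE 0.10) was -0.33 with batch as a block. Nop56, a core protein of the C/D box particles, read 9.80, 9.98, 9.97, 10.30 and 10.45 in KO and 10.29, 10.26, 10.52, 10.39 and 10.43 in WT. KO 1, KO 2 and KO 3 were below all WT arrays and KO 4 and KO 5 were not. The difference of -0.28 (SE 0.13) was -0.16 with batch as a block, and inside batch 3 it was 0.06.

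Nop58, which pairs with Nop56 in the same particles, had the widest spread of all members (SD 1.20 over the 10 arrays). Its values were 7.88, 9.97, 7.02, 7.39 and 9.83 in KO and 7.47, 7.15, 9.83, 8.26 and 7.29 in WT. KO 2, KO 5 and WT 3 were more than 1.5 above the rest whatever their genotype, and the difference between genotypes was 0.42 (SE 0.70), or 1.44 with the block. Dkc1, the pseudouridine synthase of the H/ACA box particles, had the same 3 arrays on top and a difference of 0.52 (SE 0.55), or 1.16 with the block. Its partners Gar1 and Nhp2 differed by -0.23 and 0.01, and by -0.26 and -0.36 with the block.

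Factors of large subunit assembly were lower in KO for 14 of 16 members, with a median difference of -0.20, and for 12 of 16 with batch as a block (median -0.24). Urb2, a nucleolar protein of early large subunit precursors, read 7.73, 7.96, 7.74, 7.94 and 8.14 in KO and 8.34, 8.38, 8.21, 8.46 and 8.43 in WT. All KO arrays lay below all WT arrays, with KO 5 and WT 3, both of batch 3, closest to each other. The difference was -0.46 (SE 0.10, 95% interval -0.69 to -0.24, limma adjusted p = 0.9995), a KO mean of 72.5% of WT. The arrays of batch 1 alone gave -0.50 and those of batch 3 alone -0.21. Nol9, a polynucleotide kinase that acts on ribosomal RNA precursors, read 9.16, 9.32, 9.26, 9.25 and 9.36 in KO and 9.64, 9.56, 9.42, 9.61 and 9.71 in WT. Its groups did not overlap either, and its spread was among the narrowest of the members (SD 0.19 over the 10 arrays). The difference was -0.32 (SE 0.09, 95% interval -0.51 to -0.13, limma adjusted p = 0.9995), a KO mean of 80.2% of WT, with -0.40 within batch 1 and -0.17 within batch 3.

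The other large subunit factors overlapped between genotypes. Ddx18, an RNA helicase, read 9.83, 10.16, 9.33, 9.77 and 10.24 in KO and 10.05, 10.28, 10.31, 10.40 and 10.07 in WT. KO 3 was far below the rest, and the difference of -0.36 (SE 0.17) was -0.07 with batch as a block. Ebna1bp2, a nucleolar assembly factor, read between 9.73 (KO 3) and 10.29 (KO 5) in KO and between 10.19 (WT 3) and 10.40 (WT 5) in WT. KO 2 and KO 5 lay within the WT range. The difference of -0.24 (SE 0.12) was -0.05 with batch as a block and 0.0083 within batch 3. Rrp1b read 7.32, 7.73, 7.57, 7.83 and 7.68 in KO and 7.76, 7.86, 7.75, 7.93 and 8.02 in WT. The overlap came from KO 4, with a difference of -0.24 (SE 0.11) that was -0.20 with batch as a block. Urb1, the most even of the members (SD 0.17), read 8.16, 7.86, 8.17, 7.92 and 7.77 in KO and 8.21, 8.11, 8.12, 8.33 and 8.14 in WT. KO 1 and KO 3 lay within the WT range, and the difference of -0.20 (SE 0.10) was -0.31 with the block.

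Bop1, Pes1 and Wdr12 form the PeBoW complex of large subunit maturation. Bop1 read 9.25, 8.48, 9.50, 9.39 and 8.70 in KO and 9.56, 9.45, 8.83, 9.02 and 9.40 in WT, and Pes1 ran alongside with 9.94, 9.26, 10.03, 10.16 and 9.48 in KO and 10.22, 10.05, 9.65, 9.76 and 10.17 in WT. Both were low on KO 2, KO 5 and WT 3, the reverse of Nop58. Their differences of -0.19 each were -0.54 for Bop1 and -0.47 for Pes1 with batch as a block. Wdr12 was highest on KO 2 and WT 1 and did not follow them (difference -0.16, and -0.12 with the block).

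The abundant nucleolar proteins nucleolin (Ncl), nucleophosmin (Npm1) and the helicase Ddx21 varied by array more than by genotype. Ncl read 9.76, 11.57, 8.89, 9.31 and 11.32 in KO and 9.37, 8.93, 11.20, 10.59 and 9.47 in WT. Npm1 read 9.08, 11.09, 7.94, 7.96 and 10.86 in KO and 9.03, 8.80, 10.57, 10.29 and 9.24 in WT. KO 2, KO 5 and WT 3 were the 3 highest arrays of both genes, with WT 4 next. The genotype difference was 0.26 (SE 0.60) for Ncl and -0.20 (SE 0.68) for Npm1. With batch as a block Ncl was at 1.18 and Npm1 at 1.01, so the sign of Npm1 turned. Without KO 2, KO 5 and WT 3 they were at -0.27 and -1.02, so the sign of Ncl turned. Ddx21 read 9.12, 9.53, 8.70, 8.74 and 9.45 in KO and 9.10, 8.89, 9.74, 9.95 and 9.31 in WT. Its groups overlapped, with a difference of -0.29 (SE 0.24) and 0.07 with the block.

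**Figure D3:**
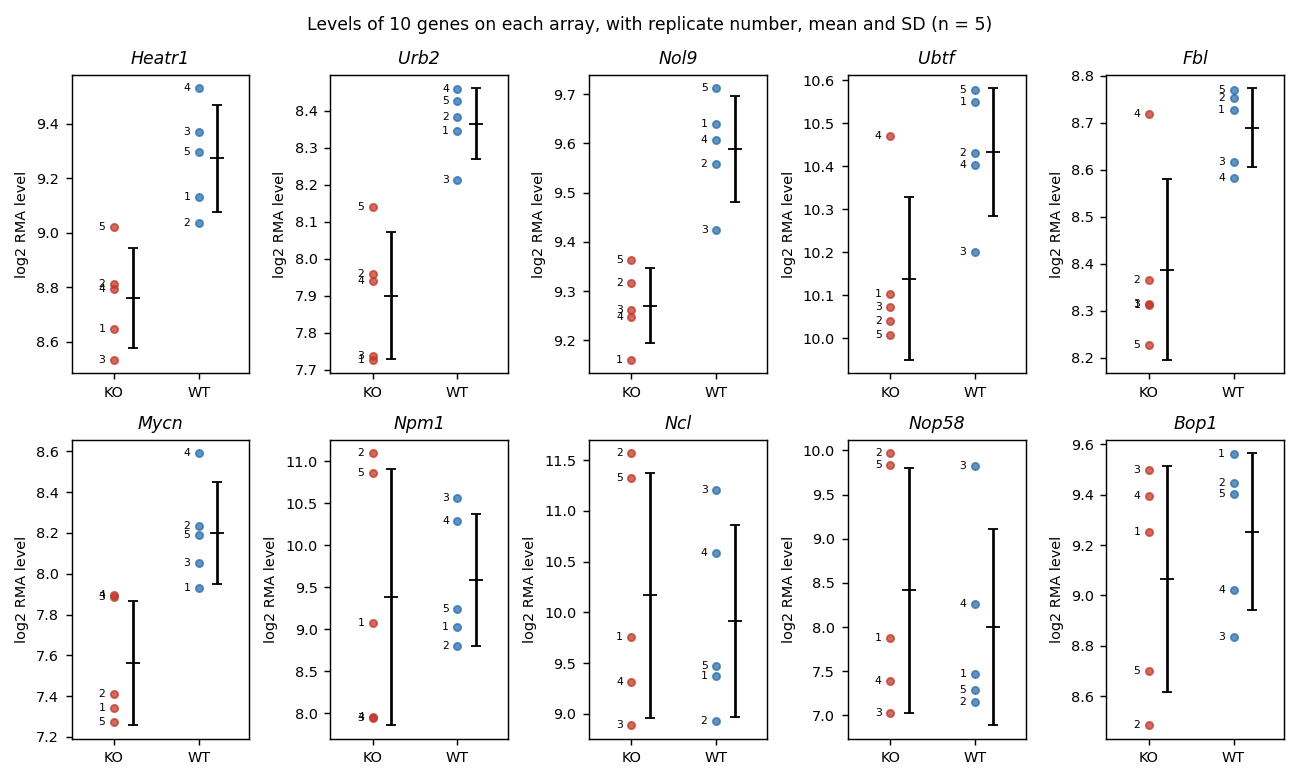
Log2 RMA level of 10 genes on each array (KO red, WT blue, replicate number beside each point), with the mean and SD of 5 arrays as black bars. Each panel has its own axis, which does not start at 0. KO and WT do not overlap for Heatr1, Urb2, Nol9 and Mycn, KO 4 alone joins the WT range for Ubtf and Fbl, and KO 2, KO 5 and WT 3 are the top points of Npm1, Ncl and Nop58 and the low end of Bop1 within their genotypes.

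Opposite array patterns ran through the group. KO 2, KO 5 and WT 3 were the 3 highest arrays for 8 members (15.4%; Wdr75, Ddx10, Nop58, Dkc1, Nol8, Gnl3, Ncl and Npm1), where this held for 12.2% of all genes. The same 3 were the lowest for 13 members (25.0%; Polr1e, Mybbp1a, Nop9, Nol6, Noc4l, Rrp9, Rrp12, Bysl, Nhp2, Bop1, Pes1, Nop2 and Nop16), where this held for 18.1% of genes. Neither share was far from that of all genes, and these are the arrays at the high end of the first principal component. KO 2, WT 3 and WT 4 were the highest for a further 8 members (Wdr43, Utp3, Utp6, Utp18, Nop14, Nol10, Noc3l and Ddx21), 15.4% against 2.74% of genes. KO 1, KO 3 and KO 4 were the lowest for 14 members (26.9%), among them Heatr1, Urb2, Nol9, Utp15 and Utp20, against 4.8% of genes, and KO 3, KO 4 and WT 2 for 9 members (17.3%) against 2.9%. The median SD over the 10 arrays was 0.35 for members and 0.26 for all genes, and 0.96 for the 8 members highest on KO 2, KO 5 and WT 3.

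**Figure D4:**
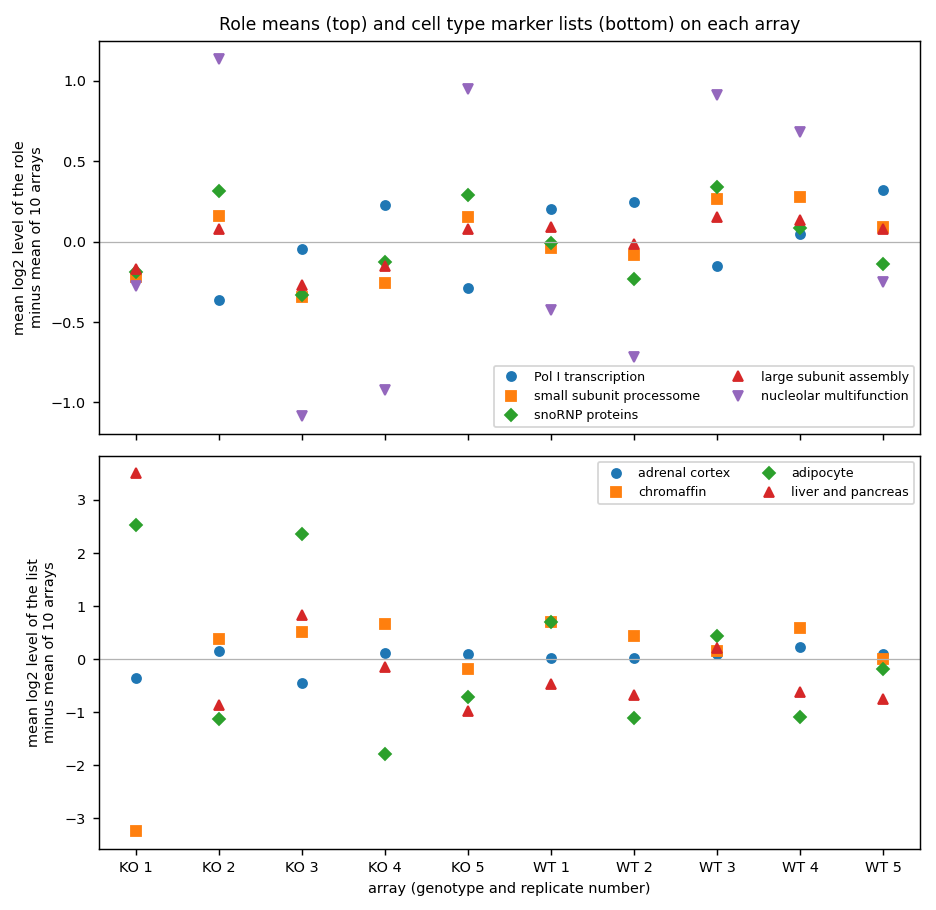
Top, mean log2 level of the members of each role on each array, minus its mean over the 10 arrays. Bottom, the same for 4 lists of cell type markers. The nucleolar multifunction genes (Ncl, Npm1 and Ddx21) have their high points on KO 2, KO 5, WT 3 and WT 4. The Pol I genes are lowest on KO 2 and KO 5, followed by KO 1 and WT 3. The adipocyte and the liver and pancreas markers are high on KO 1 and KO 3.

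**Figure D5:**
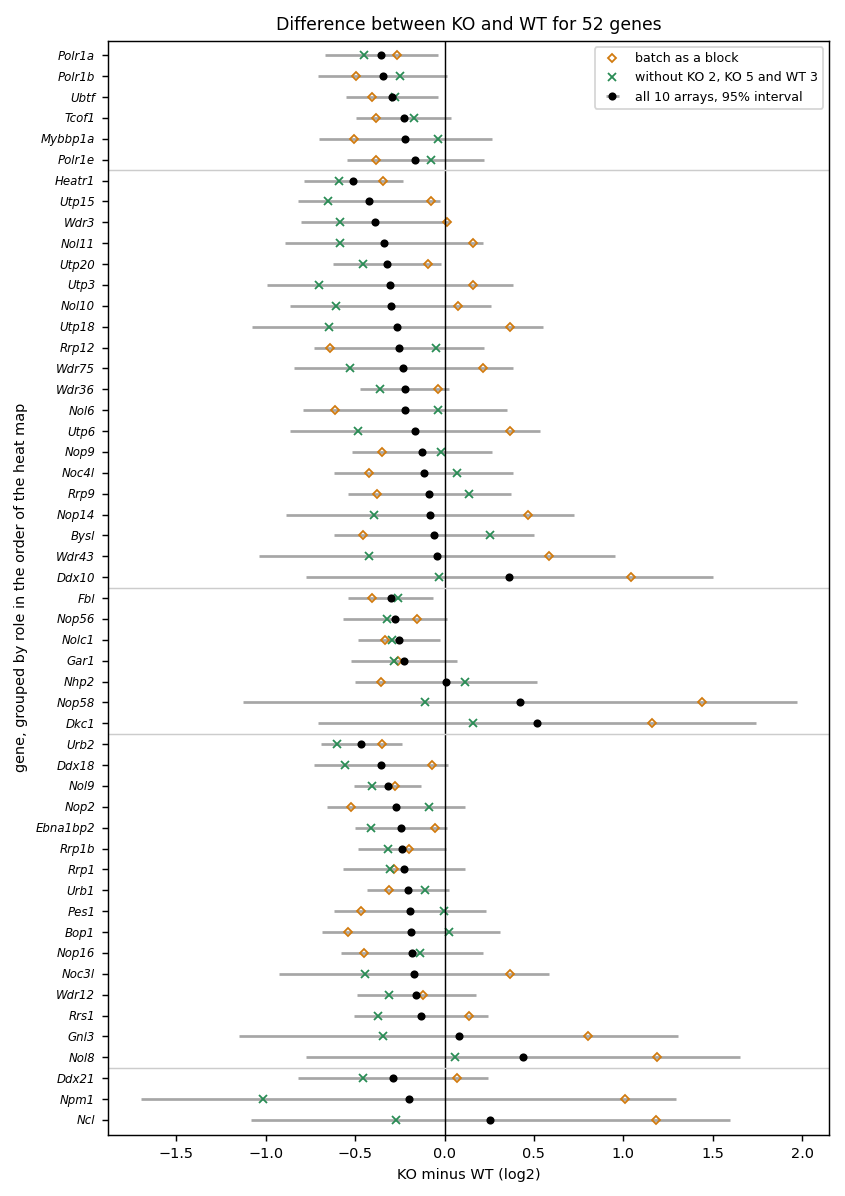
KO minus WT difference on the log2 scale for the 52 genes by role, with the 95% interval of the limma fit on 10 arrays (black), the estimate with batch as a block (orange diamonds) and the estimate without KO 2, KO 5 and WT 3 (green crosses). The point estimates of the Pol I genes stay left of 0 under all 3 settings, while those of Ddx10, Nop58, Dkc1, Gnl3, Nol8, Npm1 and Ncl lie at 0.80 to 1.44 with batch as a block.

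Genes of the same pathway outside the group were counted in the same way. Of 114 further ribosome biogenesis genes 103 were measured, 0 passed the adjusted threshold, and 90 (87.4%) had a lower KO mean, with a median difference of -0.17. At an unadjusted p under 0.05, 6 (5.83%) were lower, beside 2.50% of all probes and 2.88% of all genes. Higher in KO were 0, beside 0.923% of probes. With batch as a block 66 (64.1%) were lower, beside 59.9% of all genes. By step, a lower KO mean was found for 7 of 10 Pol I factors, 28 of 33 small subunit factors, 36 of 39 large subunit factors, 6 of 8 snoRNP factors and 13 of 13 subunits of the RNA exosome, the nuclease that trims precursors. Utp25, a small subunit factor, was the one of these whose groups did not overlap (difference -0.18, SE 0.08), or 0.971% of the 103 beside 0.498% of all genes. Rrn3, which brings RNA polymerase I to its promoter, read 9.98, 9.81, 10.06, 9.99 and 10.03 in KO and 10.29, 10.34, 10.04, 10.30 and 10.44 in WT. All of its KO values but KO 3 lay below the WT range, with a difference of -0.31 (SE 0.10). Taf1a of the same initiation machinery differed by -0.53 (SE 0.29), and 0.00 with batch as a block. The 3 outside Pol I factors with a higher KO mean were Twistnb (0.45), Taf1d (0.38) and Polr1d (0.13). The median difference of these 10 factors was -0.06, and 6 of 10 were lower with batch as a block (median -0.20).

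Of the Myc network, 7 of 10 genes (70.0%) had a lower KO mean, beside 53.2% of all genes, and 0 passed the adjusted threshold. The median difference was -0.12 (all genes -0.01), and 3 genes were higher in KO, by up to 0.31. Mycn, a Myc family transcription factor, read 7.34, 7.41, 7.88, 7.90 and 7.27 in KO and 7.93, 8.23, 8.05, 8.59 and 8.19 in WT. All KO arrays lay below all WT arrays, KO 3 and KO 4 by little. The difference was -0.64 (SE 0.17, limma adjusted p = 0.9995), and blocking on batch gave -0.80. The value was -0.56 inside batch 1 and -1.02 inside batch 3. Max, the partner of Myc proteins on DNA, differed by -0.21 (SE 0.10). Of 13 proliferation genes 7 had a lower KO mean, with a median difference of -0.03. The smallest unadjusted p among them belonged to the replication helicase subunits Mcm3 (difference -0.47, SE 0.20) and Mcm2 (-0.35, SE 0.21), whose groups overlapped.

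Several members carry snoRNA genes within their own span. By the RefSeq table this held for 6 of the 53 genes (11.3%; Wdr43, Nop56, Nop58, Dkc1, Gnl3 and Ncl) and for 372 of 21896 protein-coding genes (1.7%). They contain 18 snoRNA genes, of which 4 had a probe of their own. Snora75, inside Ncl, read 6.55, 8.41, 6.02, 6.28 and 8.06 in KO and 6.26, 5.77, 8.25, 6.77 and 5.87 in WT. Its 3 highest arrays, KO 2, KO 5 and WT 3, were also those of Ncl. Snord82, likewise inside Ncl, read 6.73, 7.30, 6.58, 6.99 and 6.23 in KO and 8.27, 7.08, 6.67, 6.74 and 5.75 in WT and did not share that order. Snord57, inside Nop56, differed by -0.34 (SE 0.23) and Snord53, inside Wdr43, by 0.15 (SE 0.29). A snoRNA probe lies within its host's span, so signal of host precursor RNA and of the snoRNA cannot be told apart on the array.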

How the data were processed

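Each deposited value is the log2 level of a transcript cluster (here called a probe), which the authors made with RMA, per the submitters' processing notes. RMA corrects background, normalizes by quantiles and summarizes probes. No software or version is given in the sources used here. It compresses fold changes and gives no detection call, so no gene was classed as absent. Of 35557 rows, 25689 were measured, and 25 probes below the first annotated ID were left out, leaving 25664. Array medians were 7.17 to 7.25. The number of arrays limits the precision.

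Genotypes were compared by limma (version 3.58.1, R 4.3.3; lmFit followed by eBayes, two-sided tests, no other term), with Benjamini-Hochberg adjustment over all 25664 probes. The fit was tested on simulated data with independent noise and known shifts larger than the members' differences. That simulation held no batches and no array patterns, so it does not show how the fit behaves with those of these arrays. Mice are numbered in the labels and were taken as separate animals. Full values are given for the members with the smallest unadjusted p of each role, those without overlap and those with the widest and narrowest SD, and others, such as Bop1, Pes1 and Noc4l, were chosen after their values were seen. The members and gene lists were chosen with earlier results of these data known. Promoter windows are RefSeq's (GRCm38.p6). Figures were drawn with matplotlib 3.10.9.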

Additional observations from a re-analysis of the deposited data

Results flagged for a closer look

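For Ubtf and Fbl the array KO 4 stood far above the other 4 KO arrays. The gap to the nearest KO array was 0.794 of the KO range for Ubtf and 0.719 for Fbl, both above Dixon's critical value for 5 samples. Of 46 groups of 5 arrays examined in this way 2 were singled out, and about 2.3 would be by chance alone.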

How the results depend on the processing

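No member passed the adjusted threshold in any alternative run, so the counts below are those at an unadjusted p under 0.05. Lower in KO were 9 members in the fit reported, 0 within batch 1 and 0 within batch 3 (0.522% and 0.709% of all probes), 4 with a trended robust variance (1.75%), 16 with array weights (4.68%), 4 without KO 1 and KO 3 (1.89%), 18 without KO 2, KO 5 and WT 3 (7.29%), and 3 at an unadjusted p under 0.01 (0.433%). Leaving out 1 array at a time gave 4 (without WT 5, 1.36%) to 13 (without KO 2, 3.25%), and 5 without KO 1 or without KO 3. Members without overlap, 3 in all arrays, were 28 of 52 within batch 1 and 26 within batch 3, where 1 genotype has a single array and 39.3% and 31.5% of all genes did not overlap in this direction, 15 without KO 2, KO 5 and WT 3, and 3 to 7 (without KO 4; 5 without KO 2) when 1 array was left out. A fit with batch as a block gives no array values, so overlap has no count there. Of 396 values for 22 named members 374 kept their sign and 22 did not. Signs turned with batch as a block for Wdr3 (0.016), Nol11 (0.16), Ddx21 (0.069) and Npm1 (1.01, and 0.082 as a random block). They turned within batch 1 for Utp20 (0.095), Nol11 (0.12), Ddx21 (0.23) and Npm1 (1.05), and within batch 3 for Wdr3 (0.073), Nol11 (0.20), Nop56 (0.056), Ebna1bp2 (0.0083) and Npm1 (0.97). Without KO 2, KO 5 and WT 3 they turned for Ncl (-0.27) and Nop58 (-0.11), and without KO 1 and KO 3 for Npm1 (0.38). With 1 array left out Ncl ranged from -0.092 to 0.58 and Npm1 from -0.63 to 0.16. The cause was not tested. Genotype and batch are unequally spread. No paired analysis was possible because the labels give no replicate numbers shared between genotypes.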
